A study of Mus musculus with 2 samples.

Results

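Quiet alveolar macrophages were the cells of this class that held little RNA of Cxcl3, Ccl5 and Inhba, genes of a neutrophil-recruiting chemokine, a lymphocyte-recruiting chemokine and the activin A subunit. Alveolar macrophages were first taken as cells with at least 200 genes, at least 3000 unique molecular identifiers (UMIs, each a captured RNA molecule) and at most 20% mitochondrial UMIs, in which Plet1, Mrc1, Krt79, Ear2, Lpl and Marco together made up at least 0.15% of UMIs and at least 8 UMIs. Cells with any UMI of Cd3e, Cd79a or Cdh5, or with more than 5 UMIs of Ly6c2 and F13a1, were left out. The quiet cells were then selected on measured values, as those below the pooled median of the share of UMIs held by the 3 genes. They numbered 303 of 607 alveolar macrophages, among 17664 cells past the filters and 21077 barcodes in all. LPS_MCZ gave 211 of these quiet cells and LPS gave 92.

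The LPS_MCZ library came from male ICR mice, an outbred stock, aged 6 to 8 weeks, that received LPS (bacterial lipopolysaccharide, a trigger of acute lung inflammation) and miconazole by intraperitoneal injection. Miconazole is an azole antifungal that blocks the sterol enzyme Cyp51 of fungi. For the dose, the sample's own entry gives 0.2 mg/kg while the protocol gives 1 mg/kg, and the 2 statements were not reconciled here. The LPS library came from male ICR mice of the same age given LPS alone. Tissue of the left lower lung lobe was pooled over all mice of a group and digested, and each group was profiled as 1 droplet library with 10x Genomics 3' chemistry. The sources used here do not give the number of mice, the LPS dose or a map from cells to mice. Lungs without LPS were not analysed here. With 1 library per group there is no replicate, and no test was possible. Each interval below is at 95% and covers counting error only, not the differences between mice or between library preparations. Intervals of levels and ratios come from UMIs summed over cells, so they also leave out the spread between cells.

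Alveolar macrophages live on the inner surface of the air sacs, where they clear surfactant lipid, dust and bacteria. Their identity depends on GM-CSF and on PPARgamma, a lipid-sensing transcription factor. When lipopolysaccharide reaches Toll-like receptor 4, such cells switch on NF-kB targets such as Tnf and the chemokine genes, and type I interferon then switches on antiviral genes such as Rsad2 through STAT and IRF factors.

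The rule used the 3-gene share itself, so the split of the libraries is a description. Quiet cells made up 79.6% of the alveolar macrophages of LPS_MCZ (211 of 265, exact binomial interval 74.3 to 84.3) and 26.9% of those of LPS (92 of 342, 22.3 to 31.9). The whole class was 3.61% of LPS_MCZ cells and 3.31% of LPS cells. The pooled median lay at 0.302% of UMIs. The highest share inside was 0.297%, with 0.291% 2 cells further in, against 0.302% for the lowest share outside and 0.304% 2 cells further out. Below that line the libraries still differed: the median share was 0.0181% in quiet LPS_MCZ cells and 0.0346% in quiet LPS cells, and the 3 genes were at 0 UMIs in 30 LPS_MCZ cells and in 9 LPS cells.

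**Figure D1:**
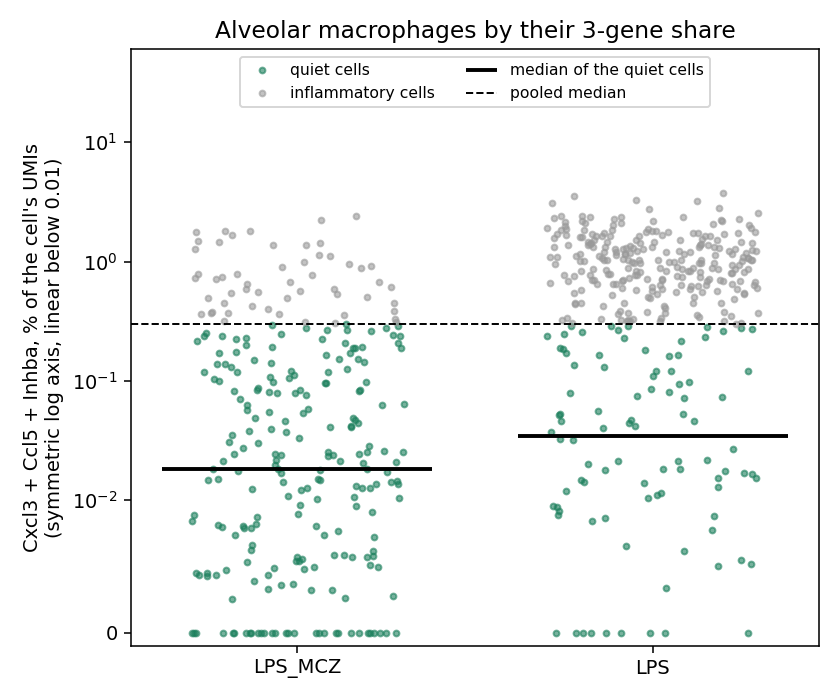
Share of each alveolar macrophage's UMIs (percent, symmetric log axis) held by Cxcl3, Ccl5 and Inhba, with LPS_MCZ left and LPS right; each point is 1 cell, green for quiet and grey for inflammatory cells, and the dashed line is the pooled median. Quiet cells number 211 in LPS_MCZ and 92 in LPS, with medians (black bars) of 0.0181% and 0.0346%.

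The summed counts were 4688162 UMIs in quiet LPS_MCZ cells and 1754770 UMIs in quiet LPS cells, with a median of 21063 and 19442 UMIs, 4585 and 4442 genes, and 3.54% and 3.29% mitochondrial UMIs per cell. The libraries shared 243 barcodes, of which 8 belonged to quiet LPS_MCZ cells and 1 to quiet LPS cells. Levels below (CPM) are counts scaled to a total of 1000000 UMIs over the summed quiet cells, ratios are log2 of LPS_MCZ over LPS with 1 CPM added to each, and a lower level can mean fewer expressing cells or less RNA per cell, which the sums cannot tell apart.

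The class markers chose the cells, so their levels are a description. The 6 marker genes had a median share of 0.742% of UMIs in quiet LPS_MCZ cells and 0.653% in quiet LPS cells. Mrc1, the mannose receptor, was seen in 92.9% of quiet LPS_MCZ cells and 81.5% of quiet LPS cells after each cell was thinned at random to 3000 UMIs, and in 97.2% and 90.2% before thinning. Its share was 1.86% and 1.00% in T and B lymphocytes, which were chosen to hold at most 2 UMIs of the same 6 markers, so this contrast was set by the choice of both kinds of cell. Plet1, a surface protein of resident alveolar macrophages, was at 2045 CPM in LPS_MCZ and 2008 CPM in LPS. Ear2, an eosinophil-associated ribonuclease that marks these cells, was at 682 and 530 CPM, a log2 ratio of 0.36 (0.26 to 0.47). Lpl, the lipoprotein lipase that frees fatty acids, stood at 2186 and 1803 CPM, and the keratin Krt79 at 251 CPM in LPS_MCZ and 344 CPM in LPS. Marco, a scavenger receptor for bacteria, had 679 CPM in LPS_MCZ and 737 CPM in LPS. None of the 6 differed by 1.5-fold, the size called a difference here.

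T cell markers summed to 7.04 CPM in LPS_MCZ and 6.27 CPM in LPS over 9 genes, B cell markers to 2.56 and 8.55 CPM over 7 genes, and fibroblast markers to 6.61 and 4.56 CPM over 7 genes. The 8 monocyte markers summed to 7123 CPM in LPS_MCZ and 6055 CPM in LPS, above the 4867 and 4376 CPM outside the class. Interstitial macrophage markers (9 genes) were at 31.1 CPM in LPS_MCZ and 134 CPM in LPS, and epithelial markers (7 genes) at 521 and 84.9 CPM; 1 cell held 64.2% of the epithelial counts of LPS_MCZ. The part of these RNAs in the ratios was not tested beyond the removals below. The 14 neutrophil markers summed to 8720 CPM in LPS_MCZ and 9988 CPM in LPS, with none at 0, against 133544 and 140570 CPM in the cells outside the class. At least 400 UMIs of S100a8 and S100a9, the calprotectin genes of neutrophils, were in 7.58% of quiet LPS_MCZ cells (16 of 211) and 7.61% of quiet LPS cells (7 of 92). Cells that passed such a limit for at least 1 of 7 gene sets of other cells (hemoglobin, surfactant and club, platelet, MHC class II, C1q, neutrophil granule, or S100a8 with S100a9) numbered 21 in LPS_MCZ and 12 in LPS. Ratios without these cells are given beside the results that they move; the limits were chosen after the data had been seen.

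Inside the quiet cells the libraries were close to each other over most genes. Of 6756 genes with at least 100 UMIs over both libraries, 311 were at least 1.5-fold higher in LPS_MCZ (4.60%) and 192 were at least 1.5-fold lower (2.84%), while 92.6% lay within 1.5-fold. The median log2 ratio was 0.03 and its standard deviation over genes 0.37. The counting interval lay wholly past 1.5-fold for 46 of the higher and 66 of the lower genes. Over the same 6756 genes, the inflammatory cells gave 370 higher and 254 lower, and all alveolar macrophages together gave 518 higher and 220 lower.

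**Figure D2:**
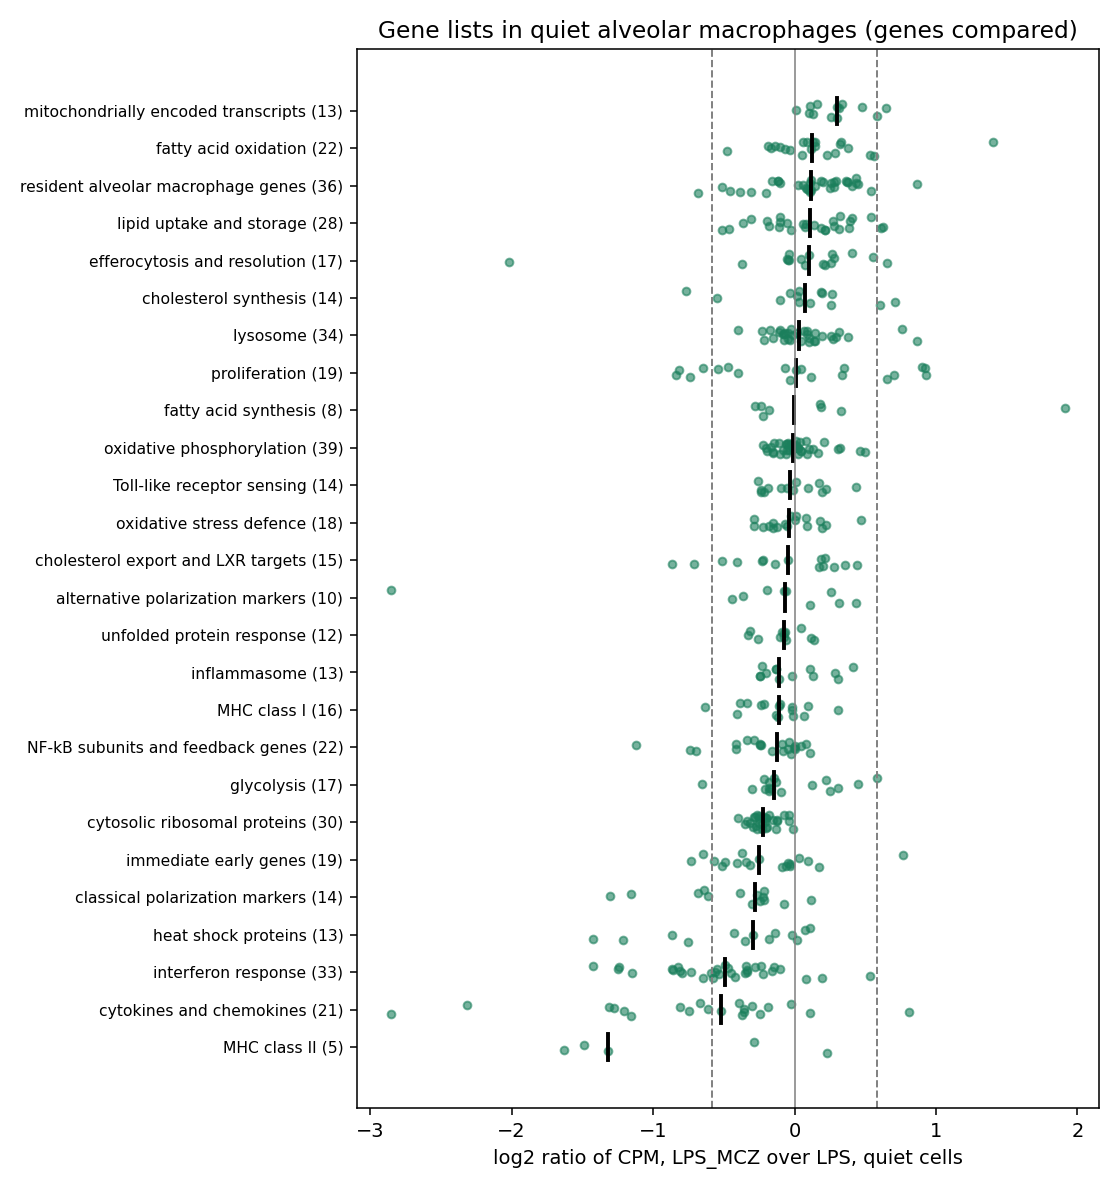
Log2 ratio of CPM, LPS_MCZ over LPS, in quiet alveolar macrophages for the members of 26 gene lists with at least 100 UMIs; each point is 1 gene, the number compared stands after each list's name, black bars are list medians and dashed lines mark 1.5-fold. Interferon response genes (median -0.49) and cytokines and chemokines (median -0.52) lie mostly left of 0, and the 13 mitochondrially encoded transcripts lie right of 0.

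Several interferon response genes were lower in LPS_MCZ. Of 33 members compared, 12 were at least 1.5-fold lower in LPS_MCZ and 0 higher, against 2.84% of all genes lower, and 30 had a ratio below 0, with a median of -0.49. The shift was also seen outside the class, where 10 of 42 interferon genes were at least 1.5-fold lower, against 2.43% of all genes there. In those cells 0 were higher (3.59% of all genes) and the median was -0.33. The part of the library in the quiet cells' ratios was not tested. Rnf213, a large ubiquitin ligase induced by interferon, was at 55.9 CPM in quiet LPS_MCZ cells and 152 CPM in quiet LPS cells (log2 ratio -1.42, -1.69 to -1.19). Rsad2 encodes viperin, which makes an antiviral nucleotide, and was at 85.1 CPM in LPS_MCZ and 190 CPM in LPS (-1.15, -1.37 to -0.95). Oasl1, an oligoadenylate synthetase-like protein, was at 56.1 and 134 CPM (-1.25, -1.52 to -1.002), and Ifi202b of the DNA-binding p200 family at 29.9 and 71.8 CPM (-1.24, -1.62 to -0.91). A pair of the factors that drive the group differed less: Stat2 was at 42.7 CPM in LPS_MCZ and 51.9 CPM in LPS, and Irf7 at 68.3 and 93.5 CPM. Ifih1, the cytosolic RNA sensor MDA5, had 385 CPM in LPS_MCZ and 337 CPM in LPS.

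These genes were unevenly spread over cells. The median quiet cell had 0 UMIs of Rsad2 in both libraries, and 1 LPS cell held 34.4% of the Rsad2 UMIs of its library, against 11.03% for the leading LPS_MCZ cell. Without the leading cell of each library, Rsad2 had a log2 ratio of -0.72 and Rnf213 of -1.02. Without the cells that carried genes of other cells, 3 interferon genes were at least 1.5-fold lower and the list's median was -0.16. Rsad2 was then at -0.82, Ifi202b at -0.79, Oasl1 at -0.69 and Rnf213 at -0.49. With the highest doublet scores removed the count was 4 and the median -0.17. Below the lower quartile of the 3-gene share (0.0212%; 112 LPS_MCZ and 40 LPS cells) 2 interferon genes were lower, 3 were higher and the median was 0.05, whereas between that quartile and the median (99 and 52 cells) 15 were lower and the median was -0.53. With each library split at its own median instead (132 LPS_MCZ and 171 LPS cells), which brings in LPS cells from above the pooled line and leaves out LPS_MCZ cells near it, 37 were lower and the median was -1.62. Over all genes that split gave 616 of 6694 higher and 506 lower, which stand beside each list count under it below. The interferon result therefore depends on which cells are counted; the part of the removed cells in it was not tested.

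Interferon-stimulated genes are bound by STAT and IRF factors at the interferon-stimulated response element. The promoters of 3 of the lower genes are shown as examples, chosen among those that hold that motif. The motif searched was GAAA, any 2 bases and GAAA again, on both strands, in 300 bases from 250 before to 50 after each RefSeq gene start (GRCm38.p6). It was in 3.44% of 32851 promoters and in 19 of the 28 interferon list genes for which a promoter was found (67.9%). Among the 12 lower genes a promoter was found for 10, and 4 of these held the motif (40%), a smaller share than in the list. A link between the motif and the ratios was not tested. Slfn5, also among these 4, is not shown. Capitals mark each match, and sequences run 5′ to 3′ on the gene's strand. Rsad2 lies on the minus strand at chr12:26456403-26456702, with its match starting 120 bases before the start. Ifit1, which binds viral RNA ends, lies on the plus strand at chr19:34640639-34640938, and Ifit3, its partner, at chr19:34583279-34583578. Ifit1 has 2 matches, starting 104 and 85 bases before its start, and Ifit3 has 2, starting 156 and 122 bases before.
Rsad2: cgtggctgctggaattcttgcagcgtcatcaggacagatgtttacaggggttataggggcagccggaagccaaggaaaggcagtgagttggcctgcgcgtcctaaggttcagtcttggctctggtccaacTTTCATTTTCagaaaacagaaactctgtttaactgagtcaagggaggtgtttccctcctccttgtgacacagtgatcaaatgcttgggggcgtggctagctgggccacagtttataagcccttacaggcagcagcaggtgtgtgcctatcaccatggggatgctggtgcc
Ifit1: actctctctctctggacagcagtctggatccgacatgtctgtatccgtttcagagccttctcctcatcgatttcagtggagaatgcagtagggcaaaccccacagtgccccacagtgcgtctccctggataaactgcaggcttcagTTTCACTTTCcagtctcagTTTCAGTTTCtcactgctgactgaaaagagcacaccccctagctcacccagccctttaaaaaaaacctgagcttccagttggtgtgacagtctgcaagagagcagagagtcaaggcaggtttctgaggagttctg
Ifit3: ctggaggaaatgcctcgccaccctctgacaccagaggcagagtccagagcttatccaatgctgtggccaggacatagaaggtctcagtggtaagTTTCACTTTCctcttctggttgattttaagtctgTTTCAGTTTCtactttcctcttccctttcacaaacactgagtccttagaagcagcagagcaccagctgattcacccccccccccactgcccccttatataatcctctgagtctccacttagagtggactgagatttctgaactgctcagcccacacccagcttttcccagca

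Ifit1 was at 61.4 CPM in quiet LPS_MCZ cells and 113 CPM in quiet LPS cells (log2 ratio -0.87, -1.14 to -0.61), and Ifit3 at 20.1 and 31.9 CPM (-0.64, -1.16 to -0.17). A single LPS cell held 35.4% of the LPS counts of Ifit1, and 1 cell held 35.7% of those of Ifit3. Without the cells carrying other cells' genes, the 3 interferon genes still lower by 1.5-fold were Rsad2, Ifi202b and Oasl1, so Ifit1 and Ifit3 were not among them.

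Among secreted inflammatory signals, 10 of 21 cytokine and chemokine genes were at least 1.5-fold lower in LPS_MCZ and 1 was higher, Cxcl14, against 2.84% of all genes lower and 4.60% higher, with a median log2 ratio of -0.52. The genes of the rule, Cxcl3, Ccl5 and Inhba, are not in these counts. Ccl4, a chemokine for monocytes and T cells, was at 423 CPM in quiet LPS_MCZ cells and 1029 CPM in quiet LPS cells (-1.28, -1.37 to -1.19), and its close relative Ccl3 at 460 and 1062 CPM (-1.20, -1.30 to -1.12). Tnf, an early inflammatory cytokine, was at 965 CPM in LPS_MCZ and 1475 CPM in LPS (-0.61, -0.68 to -0.54). The interleukin gene Il6 was at 84.7 and 190 CPM (-1.15, -1.38 to -0.95), and a single LPS cell held 35.7% of its LPS counts.

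Other cytokines did not reach 1.5-fold. Cxcl2, a neutrophil chemokine, was at 4644 CPM in LPS_MCZ and 5951 CPM in LPS, Il1b at 1764 and 2090 CPM, Il1a at 1392 and 1718 CPM, and Cxcl10 at 382 and 389 CPM. Quiet cells were therefore not free of inflammatory RNA: in thinned cells, Il1a, the membrane-associated interleukin 1, was seen in 76.3% of LPS_MCZ and 85.9% of LPS cells, against 14.3% and 11.1% of lymphocytes.

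Several of these ratios rested on few cells. Without the cells carrying genes of other cells, 2 cytokine genes were at least 1.5-fold lower and the median was -0.25, with Ccl4 at -0.33, Il6 at 0.05 and Tnf at -0.55. Ccl4 was also lower in LPS_MCZ outside the class, at 1570 CPM against 3101 CPM in LPS, and Tnf was higher there, at 509 CPM in LPS_MCZ and 335 CPM in LPS. Ccl17, a chemokine of dendritic cells, had a ratio of -2.85, and 96.6% of its LPS counts lay in 1 cell. Cxcl13, a B cell chemokine, had 53.3% of its LPS counts in 1 cell and 99.2% of its LPS_MCZ counts in another.

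Of 22 NF-kB subunits and feedback genes 3 were at least 1.5-fold lower, against 2.84% of all genes, and 0 higher, with a median of -0.12; with each library split at its own median 5 were lower and 1 higher. Nfkbia, the inhibitor IkB-alpha, was at 1961 CPM in LPS_MCZ and 1901 CPM in LPS, and Tnfaip3, the inhibitor A20, at 832 and 859 CPM. The lower members were Ier3, Bcl2a1d and Traf1. Bcl2a1d, a survival gene, was at 176 CPM in LPS_MCZ and 293 CPM in LPS (-0.74, -0.90 to -0.58), and it kept this ratio (-0.74) without the cells carrying other cells' genes. Ier3, an early stress gene, was at 96.6 and 211 CPM (-1.12), but at a ratio of -0.36 without them.

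Of 14 classical polarization markers, 5 were at least 1.5-fold lower and 0 higher, and of 10 alternative markers 1 was lower (Ccl17) and 0 higher. Over all genes 2.84% were lower and 4.60% higher. Cd86, a costimulatory receptor, was at 41.6 CPM in LPS_MCZ and 104 CPM in LPS (-1.31), and at 0.32 on the log2 scale without the cells carrying other cells' genes. Acod1, which makes itaconate, was at 302 CPM in LPS_MCZ and 486 CPM in LPS (-0.68, -0.81 to -0.56), and Irf1, an interferon regulatory factor, at 224 and 349 CPM (-0.64). Without those cells, 0 classical markers were at least 1.5-fold lower, and with each library split at its own median 8 were. Nos2, the inducible nitric oxide synthase, had 18 UMIs in LPS_MCZ and 17 UMIs in LPS, too few to compare. Toll-like receptor sensing genes showed 0 of 14 past 1.5-fold, and Tlr4 was at 97.1 CPM in LPS_MCZ and 101 CPM in LPS.

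**Figure D3:**
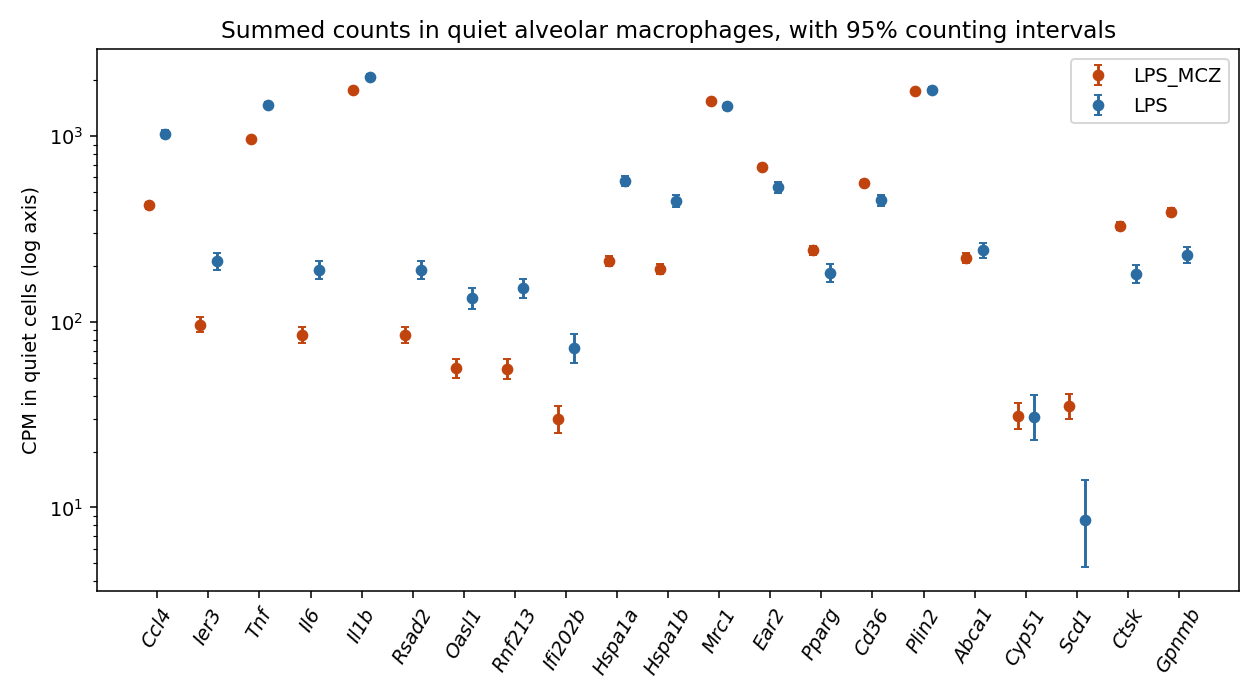
CPM (log axis) of named genes in the summed quiet cells of LPS_MCZ (left of each pair) and LPS (right), with exact Poisson intervals at 95%. Ccl4 is at 423 and 1029 CPM, Hspa1a at 213 and 572 CPM, Mrc1 at 1556 and 1445 CPM, and Scd1 at 34.98 and 8.55 CPM.

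Of 13 heat shock genes 4 were at least 1.5-fold lower in LPS_MCZ, against 2.84% of all genes, and 0 higher, with a median of -0.30, and all 4 were still lower by that size without the cells carrying other cells' genes. With each library split at its own median 1 of them was lower, Hsph1, while Hspa1a had -0.36 and Hspa1b -0.31. Hspa1a and Hspa1b, near-identical neighbours that encode the inducible chaperone Hsp70 and can share reads, were at 213 and 192 CPM in LPS_MCZ, against 572 and 447 CPM in LPS (-1.42, -1.55 to -1.30, and -1.21, -1.36 to -1.08). Hsph1, their exchange factor, was at 131 CPM in LPS_MCZ and 221 CPM in LPS, and Bag3, a cochaperone, at 42.7 and 78.6 CPM. Of the 13 genes 10 had ratios below 0, among them Hsp90aa1 at -0.43 and Dnajb1 at -0.35. The 3 above 0 were Hsp90ab1 at 0.02, Dnaja1 at 0.07 and Chordc1 at 0.11.

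Hsp70 RNA was unevenly spread. At least 50 UMIs of Hspa1a with Hspa1b were found in 4.27% of quiet LPS_MCZ cells (9 of 211, 1.97 to 7.94) and 13.04% of quiet LPS cells (12 of 92, 6.93 to 21.7), and the median cell of either library had 1 UMI. These cells held 40.2% of the Hspa1a and Hspa1b UMIs in LPS_MCZ and 78.9% in LPS. In the inflammatory cells the ratios were 0.20 for Hspa1a and 0.23 for Hspa1b, and outside the class Hspa1a was at 109 CPM in LPS_MCZ and 155 CPM in LPS. Of 19 immediate early genes 2 were at least 1.5-fold lower, Atf3 and Socs3, against 2.84% of all genes. The 1 higher, against 4.60% of all genes, was Fosb, an AP-1 subunit at 837 CPM in LPS_MCZ and 491 CPM in LPS (0.77, 0.66 to 0.88). Fos was at 765 CPM in LPS_MCZ and 815 CPM in LPS, and Jun at 394 and 562 CPM. The list's median was -0.25, and with each library split at its own median it was 0.47, with 7 genes higher and 1 lower.

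The list of resident genes holds the 6 genes of the rule, so its count and median are partly set by the choice of cells. Of 36 members 1 was at least 1.5-fold higher in LPS_MCZ (Ctsk) and 1 lower (Fabp1), against 4.60% and 2.84% of all genes. Neither of them is a gene of the rule, and the list's median was 0.12. With each library split at its own median 14 were higher and 2 lower, against 616 higher and 506 lower of 6694 genes. Pparg was at 243 CPM in quiet LPS_MCZ cells and 182 CPM in quiet LPS cells (0.41, 0.23 to 0.59). Chil3, a chitinase-like protein, was at 6914 and 5789 CPM, and the carbonic anhydrase Car4 at 1268 CPM in LPS_MCZ and 1655 CPM in LPS. Ctsk, the collagen-cleaving cathepsin K, was at 328 CPM in LPS_MCZ and 180 CPM in LPS (0.86, 0.69 to 1.05), with 7.66% and 6.65% of its counts in the leading cell of each library. Fabp1, a fatty acid binding protein, was at 102 and 165 CPM (-0.68, -0.90 to -0.47).

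Few lipid genes passed 1.5-fold. Of 28 lipid uptake and storage genes 2 were at least 1.5-fold higher in LPS_MCZ and 0 lower (median 0.11), and of 22 fatty acid oxidation genes 1 was higher and 0 lower (median 0.12). Over all genes 4.60% were higher and 2.84% lower. With each library split at its own median, 4 lipid uptake and storage genes were higher and 2 lower, and 6 oxidation genes were higher and 0 lower (median 0.41). In the quiet cells as reported, a higher gene was Lpin1, a phosphatidate phosphatase, at 156 CPM in LPS_MCZ and 101 CPM in LPS (0.62, 0.39 to 0.87). The others higher there were G0s2, an inhibitor of lipolysis, at 200 and 131 CPM, and the peroxisomal enzyme gene Ehhadh at 34.8 and 12.5 CPM (1.40). G0s2 was in 26.5% of thinned quiet LPS_MCZ cells and 13.04% of LPS cells, below the 48.0% and 36.4% of lymphocytes, and at 3058 and 2742 CPM outside the class, so no expression can be read from these shares; its ratio was 0.14 with each library split at its own median. For Ehhadh 1 cell held 36.8% of the LPS_MCZ counts and another 45.5% of the 22 LPS counts. Cd36, the fatty acid scavenger receptor, was at 561 CPM in LPS_MCZ and 451 CPM in LPS (0.32, 0.20 to 0.43). Plin2, the coat protein of lipid droplets, had 1745 CPM in LPS_MCZ and 1773 CPM in LPS, and Fabp4 had 860 and 1067 CPM.

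Scd1, which puts the double bond into stearate, had the largest ratio among the lipid genes, at 164 UMIs and 34.98 CPM in LPS_MCZ against 15 UMIs and 8.55 CPM in LPS (1.91, 1.27 to 2.90). Its thinned share was 6.64% of quiet LPS_MCZ cells and 2.17% of quiet LPS cells, below the 8.55% and 8.00% of lymphocytes, so no difference in expressing cells can be read from the shares. Scd2 was at 46.7 CPM in LPS_MCZ and 37.0 CPM in LPS, and of 8 fatty acid synthesis genes only Scd1 passed 1.5-fold.

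Sterol genes are of interest because azoles block Cyp51. Cyp51 itself was at 31.1 CPM in LPS_MCZ (146 UMIs) and 30.8 CPM in LPS (54 UMIs), a ratio of 0.02 (-0.44 to 0.50). Srebf2, a regulator of the pathway, was at 68.9 CPM in LPS_MCZ and 67.2 CPM in LPS. Of 14 cholesterol synthesis genes 2 were at least 1.5-fold higher (Scap and Dhcr7) and 1 lower (Hmgcs1), against 4.60% and 2.84% of all genes. Hmgcs1 was at 54.6 CPM in LPS_MCZ and 93.5 CPM in LPS (-0.76, -1.06 to -0.48), and the list's median was 0.07. Below the lower quartile of the 3-gene share that median was -0.41 and between the quartile and the median 0.39. It was -0.50 with each library split at its own median, with 5 genes lower and 0 higher. Outside the class 8 of 24 cholesterol synthesis genes were at least 1.5-fold higher in LPS_MCZ, against 3.59% of all genes there, 0 were lower (2.43% of all genes), and the median was 0.40.

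The list of cholesterol export genes and targets of the receptor LXR gave 0 of 15 higher and 2 lower, against 4.60% and 2.84% of all genes. The lower ones were Apoc1, at a ratio of -0.71, and Ch25h. With each library split at its own median 4 were higher and 1 lower. Abca1, the exporter to apolipoprotein A-I, was at 220 CPM in LPS_MCZ and 242 CPM in LPS, and Abcg1, the exporter to HDL, at 1139 and 999 CPM. Ch25h, an interferon-inducible hydroxylase that makes 25-hydroxycholesterol, was at 185 CPM in quiet LPS_MCZ cells and 337 CPM in quiet LPS cells (-0.86, -1.02 to -0.71). Without the cells carrying other cells' genes its ratio was -0.87, while the lower genes of the interferon list went from 12 to 3, with Rsad2 among the 3.

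Transcripts of the mitochondrial genome were above 0 in all 13 genes, with a median of 0.30, although 1, mt-Atp8, reached 1.5-fold at 264 CPM in LPS_MCZ and 169 CPM in LPS (0.64, 0.46 to 0.84). Nuclear-encoded oxidative phosphorylation genes had 0 of 39 past 1.5-fold and a median of -0.01. Cytosolic ribosomal protein genes were below 0 in all 30 members, with a median of -0.22 and none past 1.5-fold, and outside the class their median was -0.21. Glycolysis genes had 1 of 17 higher and 1 lower, and lysosome genes 2 of 34 higher (Ctsk and Gpnmb) and 0 lower. Over all genes 4.60% were higher and 2.84% lower. The split at each library's own median gave 6 lysosome genes higher and 0 lower. Gpnmb, a lysosomal glycoprotein of lipid-laden macrophages, was at 391 CPM in LPS_MCZ and 230 CPM in LPS (0.76, 0.61 to 0.92), and Itgav, an integrin subunit that binds apoptotic cells and activates TGF-beta, at 142 and 89.5 CPM (0.66, 0.41 to 0.92).

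A set of high ratios was spread over many cells. Gm42418, which overlaps ribosomal RNA sequence and was picked after its values were seen, was at 30589 CPM in quiet LPS_MCZ cells and 9738 CPM in quiet LPS cells, a ratio of 1.65. Cmss1, a nucleolar protein gene, was at 2065 CPM in LPS_MCZ and 707 CPM in LPS (1.55), Camk1d, a calcium-dependent kinase, at 747 and 235 CPM (1.67), Gphn, a scaffold protein, at 1389 and 553 CPM (1.33), and Lars2, the mitochondrial leucyl-tRNA synthetase, at 728 and 308 CPM (1.24). Outside the class the ratios were 0.84 for Cmss1, 1.07 for Camk1d, 1.10 for Gphn and 0.86 for Lars2 (higher in LPS_MCZ in each case), and the part of the library in the quiet cells' ratios was not tested. Adgrl3, an adhesion receptor, was at 217 CPM in LPS_MCZ and 89.5 CPM in LPS (1.27, 1.04 to 1.53).

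On the lower side was also a gene of no list. Fmnl2, a formin that builds actin filaments, was at 68.5 CPM in quiet LPS_MCZ cells and 201 CPM in quiet LPS cells (-1.54, -1.78 to -1.33). Outside the class Fmnl2 was at higher levels than in quiet cells and near equal between the libraries, at 474 CPM in LPS_MCZ and 497 CPM in LPS. Without the cells carrying other cells' genes its ratio was -1.19. It was -0.79 below the lower quartile of the 3-gene share and -2.60 with each library split at its own median. The part of RNA from other cells in these ratios was not tested.

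Other extreme ratios lay in single cells. Hba-a1, a globin, was at 138 CPM in LPS_MCZ and 821 CPM in LPS, with 80.7% of the LPS counts in 1 cell. Sftpc, the surfactant protein of type II epithelium, was at 251 and 19.4 CPM with 92.2% of LPS_MCZ counts in 1 cell, and Pf4 of platelets at 139 and 4.56 CPM with 94.5% in 1 cell. Prg4, lubricin, had 98.4% of its LPS_MCZ counts in 1 cell and 64.9% of its LPS counts in 1 cell. MHC class II genes, which present antigen, had 3 of 5 at least 1.5-fold lower, against 2.84% of all genes. H2-Ab1 had 74.1% and 66.8% of its counts in 1 cell of each library. Class II genes were among those used to remove cells carrying other cells' genes, so their ratios without those cells are set by that removal. Scgb1a1, a club cell secretoglobin, was spread over many cells: it was in 32.7% of thinned quiet LPS_MCZ cells and 20.7% of LPS cells, against 40.3% and 14.4% of lymphocytes, at 154 and 55.8 CPM, and it was at 2101 CPM in LPS_MCZ and 1262 CPM in LPS outside the class. As lymphocytes should lack the gene, no expression in quiet cells can be read from these shares. With an estimate of free RNA subtracted its ratio was 4.41, and the part of free RNA in it was not tested.

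Cells in division were found in both libraries. At least 20 UMIs of mitotic genes were in 5.21% of quiet LPS_MCZ cells (11 of 211, 2.63 to 9.14) and 6.52% of quiet LPS cells (6 of 92, 2.43 to 13.7), and these intervals overlap. Of 19 proliferation genes 5 were at least 1.5-fold higher and 4 lower, against 4.60% and 2.84% of all genes, and 5 and 8 with each library split at its own median. The higher ones included the replication licensing genes Mcm2, at 27.9 CPM in LPS_MCZ and 14.2 CPM in LPS, and Mcm5, at 26.5 and 13.7 CPM, and the lower ones Ccnb2, a mitotic cyclin, at 16.4 and 30.2 CPM.

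Further lists with no member past 1.5-fold in either direction were oxidative stress defence (18 genes, median -0.04), the inflammasome (13 genes, -0.11) and the unfolded protein response (12 genes, -0.08). MHC class I genes had 1 of 16 lower, against 2.84% of all genes, and 0 higher. The lower one was Nlrc5, their transactivator, at 15.8 CPM in LPS_MCZ and 25.1 CPM in LPS. With each library split at its own median 9 were lower, against 506 of 6694 genes, and the median was -0.70. Efferocytosis and resolution genes had 1 of 17 higher, Itgav, and 1 lower, C1qa, against 4.60% and 2.84% of all genes. The LPS_MCZ counts of C1qa lay to 92.1% in 1 cell. In LPS 2 cells held 98.5% of the counts of C1qa, C1qb and C1qc together. The split at each library's own median gave 7 efferocytosis and resolution genes higher and 0 lower.

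**Figure D4:**
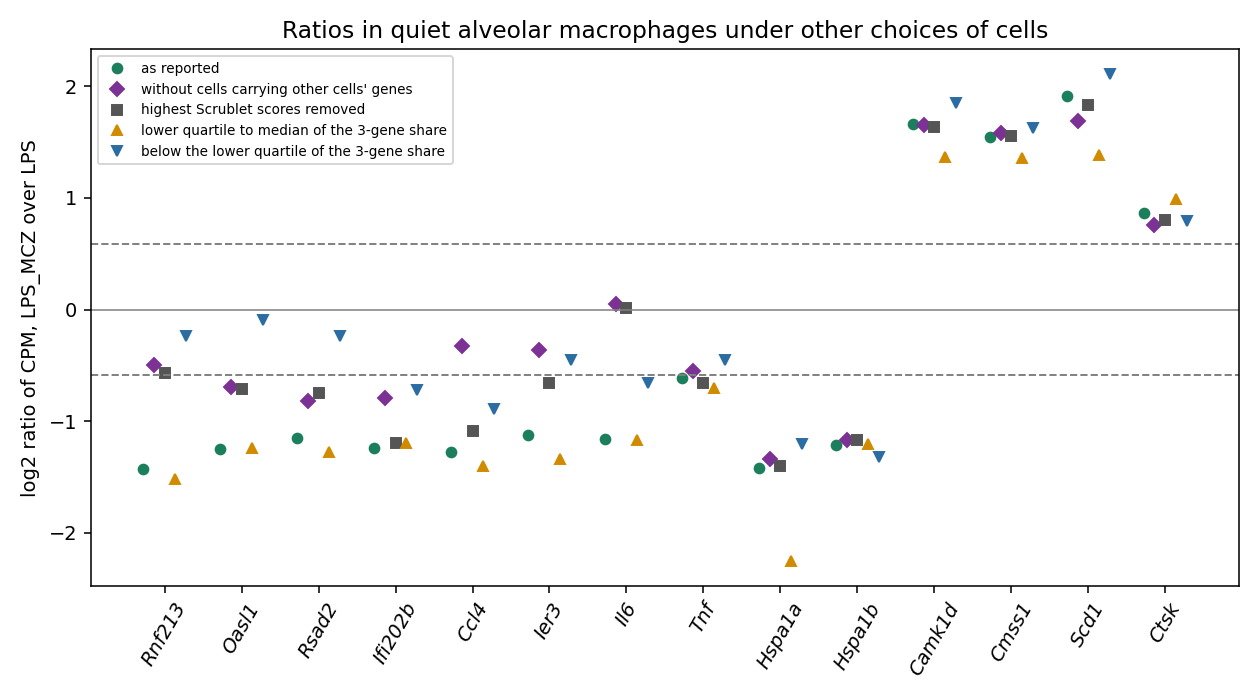
Log2 ratio of CPM, LPS_MCZ over LPS, for 14 named genes in quiet alveolar macrophages under 5 choices of cells; dashed lines mark 1.5-fold. Il6 has -1.15 as reported and 0.05 without cells carrying other cells' genes, while Hspa1b (-1.21 and -1.17), Camk1d (1.67 and 1.65) and Scd1 (1.91 and 1.69) stay on their side.

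Set beside the other alveolar macrophages, the quiet cells showed smaller library differences than the whole class in several lists. Interferon response genes had a median of -0.49 in quiet cells, -0.42 in inflammatory cells (54 LPS_MCZ and 250 LPS cells) and -1.005 in all alveolar macrophages, where 35 of 40 were at least 1.5-fold lower (4.10% of all genes) and 0 higher. Resident genes had medians of 0.12, 0.28 and 0.41, with 1 of 36 higher in quiet cells, 5 of 35 in inflammatory cells (4.44% of all genes higher, 4.15% lower) and 14 of 36 in the class (7.66% of all genes higher). Fatty acid oxidation genes had medians of 0.12, 0.22 and 0.35. The resident genes were shifted outside the class as well, with a median of 0.28. There 8 of 37 were at least 1.5-fold higher and 2 lower, against 3.59% and 2.43% of all genes. The class pools the quiet and inflammatory cells, whose proportions differ between the libraries, so its ratios hold both the difference in proportions and the differences within each set of cells.

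Cytokines and chemokines had a median of -0.52 in quiet cells as reported, -0.21 in inflammatory cells and -0.24 in the class. Without the cells carrying other cells' genes the quiet median was -0.25, and with the highest doublet scores removed it was -0.33. The other sets were not recomputed under these removals. Tnf had a ratio of -0.61 in quiet cells, 0.30 in inflammatory cells and 0.10 in the class. Immediate early genes had medians of -0.25, 0.26 and 0.49 in the same order, negative in quiet cells only among these 3 sets. Cholesterol export genes and LXR targets had -0.04, 0.29 and 0.31. The rule itself divides the cells by an inflammatory measure, so these differences between the sets are a description, and they were not tested.

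**Figure D5:**
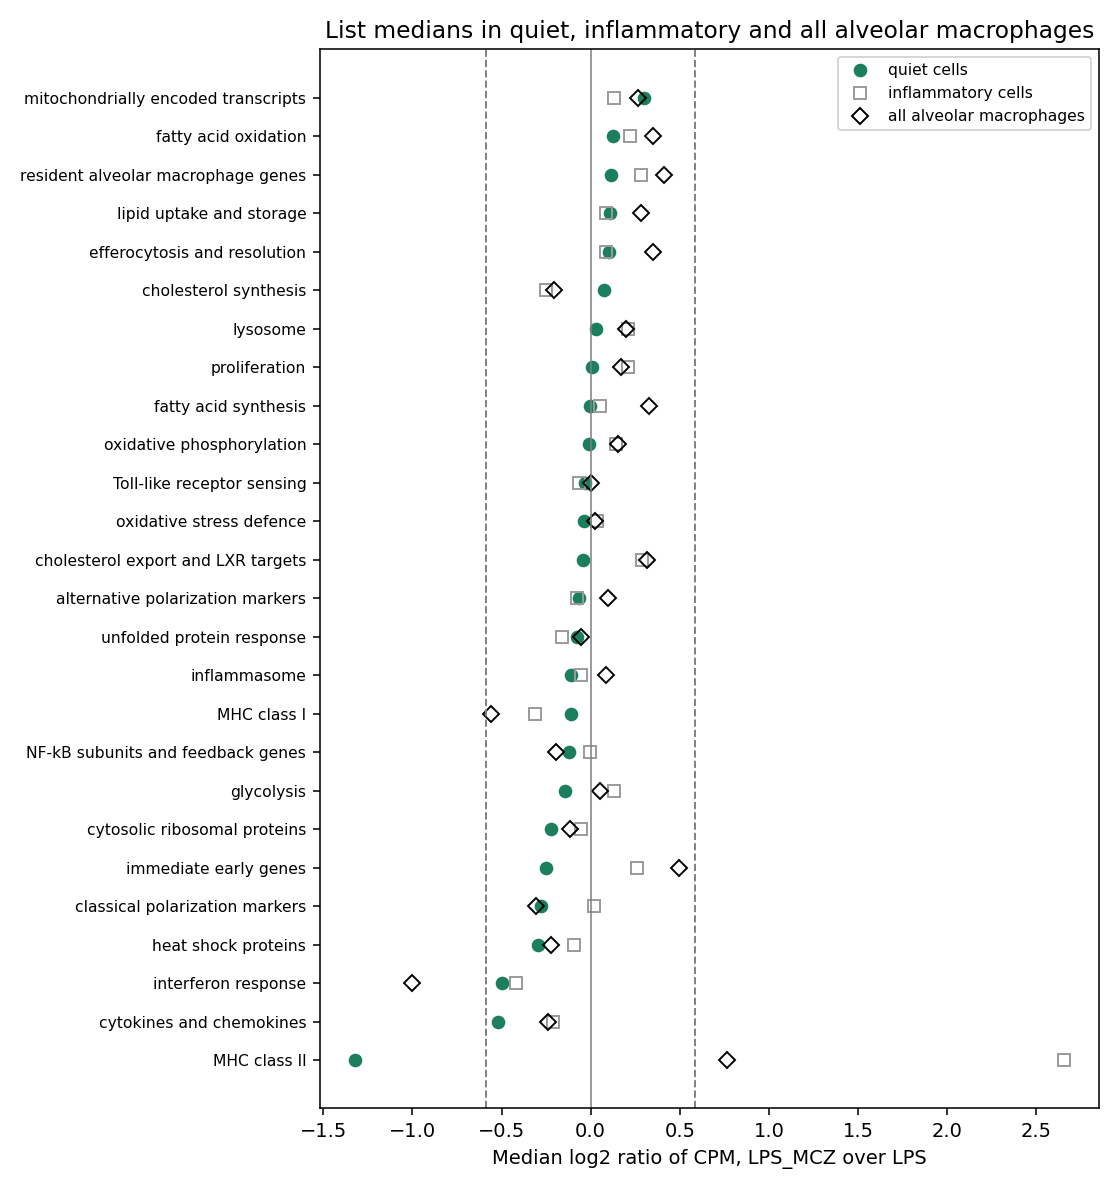
Median log2 ratio of CPM, LPS_MCZ over LPS, for each of 26 gene lists in quiet cells (filled circles), inflammatory cells (open squares) and all alveolar macrophages (open diamonds); dashed lines mark 1.5-fold. For interferon response genes the quiet median is -0.49 and that of all alveolar macrophages -1.005, and for resident genes the medians are 0.12 and 0.41.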

How the data were processed

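Droplet RNA counts of 2 mouse lung libraries were used. The deposited files held raw UMI counts per gene and barcode, made by the authors with Cell Ranger 7.0.0 per the file headers; bcl2fastq 2.20 and the mm10 build are per the submitters' processing notes. Whether intronic reads were counted, and how doublets or free RNA were handled, is not given in the sources used here.

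Counts of quiet cells were summed per library, scaled to CPM and compared as log2 ratios with a pseudocount of 1 CPM (scipy 1.17.1, numpy 2.4.6), with exact conditional (Clopper-Pearson) intervals for ratios and shares and exact Poisson intervals for CPM. The ratio intervals were tested on simulated Poisson counts without any spread between cells. That test therefore does not cover genes whose counts lie in few cells. Shares were taken from 1 random thinning to 3000 UMIs. T and B lymphocytes had at least 3 UMIs of their markers and at most 2 of the class markers. Genes named were the 12 highest and 12 lowest with at least 200 UMIs and an interval wholly past 1.5-fold (genes of the rule and those without an official symbol left out), up to 4 per list of 26, the marker and rule genes, and genes of the study's question with at least 20 UMIs; other list members were named after their values were seen. The members and lists were chosen with earlier results of these data known. Gene positions are from GENCODE M21 and promoters from RefSeq (GRCm38.p6). No doublets were removed in the reported values; scores from Scrublet in scanpy 1.11.5 served as an alternative, as did other filters, splits and scalings. Some genes that the rule names are not reported here.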

Additional observations from a re-analysis of the deposited data

Results flagged for a closer look

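In 9 of the named genes the ratio of LPS_MCZ over LPS was past 1.5-fold in opposite directions in quiet and in inflammatory alveolar macrophages; the difference between the 2 sets of cells was not tested in any of them. Ccl17 had a log2 ratio of -2.85 in quiet and 2.39 in inflammatory cells, and S100a4, a calcium-binding protein of monocytes, had -2.62 and 2.22. The MHC class II genes gave -1.63 and 2.61 for H2-Ab1, -1.49 and 2.7 for Cd74, and -1.32 and 3.27 for H2-Aa. In quiet cells 96.6% of the LPS counts of Ccl17, 54.5% of those of S100a4, 66.8% of those of H2-Ab1, 47.3% of those of Cd74 and 60.4% of those of H2-Aa lay in 1 cell. Pf4 had 4.65 in quiet and -1.61 in inflammatory cells, and Spata7, a ciliary protein gene, had 1.56 and -1.32, with 94.5% of the quiet LPS_MCZ counts of Pf4 and 82.0% of the quiet LPS counts of Spata7 in 1 cell. Cdk1, the mitotic kinase, had 0.93 and -0.69. Adgrl3 had 1.27 in quiet and -0.71 in inflammatory cells, with 3.83% of its quiet LPS_MCZ counts and 8.92% of its quiet LPS counts in the leading cell.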

How the results depend on the processing

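No paired analysis was possible because each group has 1 library and no result comes from a test. Of 20 alternatives, 2 were chosen after seeing the data: leaving out barcodes shared by the libraries (296 higher and 191 lower genes) and leaving out cells that carry other cells' genes (293 and 140). The counts of 311 higher and 192 lower genes moved most with each library split at its own median (616 and 506), a pseudocount of 10 CPM (138 and 125), a minimum of 20 UMIs per gene (977 and 579) or 300 UMIs (86 and 75), and cells thinned to 3000 UMIs (1056 and 751). Without the cell with the most UMIs of each gene they were 442 and 121, so 78.5% of called genes were higher, against 52.5% with a pseudocount of 10 CPM and 53.4% with a minimum of 300 UMIs. Of 70 named genes past 1.5-fold, 45 never took the opposite sign in the alternatives run (Prg4 reached 0 below the lower quartile and Hbb-bs with free RNA subtracted) and 25 did at least once, and the cause was not tested.

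The log2 ratios that changed sign were as follows. With class markers at 0.3% of UMIs or more, Ccl17 had 1.54, Sftpc -0.031 and Cd86 0.67. With each library split at its own median, Spata7 had -0.039, Pf4 -0.27, Irf1 0.072, Apoc1 0.058, H2-Aa 0.23 and Cdk1 -0.35. Below the lowest pooled tertile of the 3-gene share, Camp had 1.625 and Cdk1 -0.37. Below the lower quartile, Cxcl13 had 0.49, Camp 1.73, Acod1 0.61, C1qa 0.49, Cdk1 -0.52 and Nos2 1.40, and between it and the median Ccl17 had 1.80, Hba-a1 0.074, Hbb-bt 0.25, Sftpc -0.17, Sftpa1 -0.40 and Bag3 0.78. In thinned cells Dhcr7 had -0.28 and Nos2 2.06. Without the highest Scrublet scores Serpinb2 had 0.53, Il6 0.012 and C1qa 0.028, and without the leading cell Ccl17 had 0.81. Without cells carrying other cells' genes Serpinb2 had 2.03, Ccl17 1.80, H2-Ab1 0.48, Sftpc -0.27, Ccl7 0.30, Traf1 0.28, Cd86 0.32, Il6 0.051, Cd74 0.42, H2-Aa 0.18 and Nos2 0.25. With 92 quiet LPS cells, genes with few UMIs or with most counts in 1 cell cannot be placed by these data.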
